A study of Mus musculus with 6 samples.

Results

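Interferon-stimulated genes are the genes that cells switch on in answer to interferons, the secreted proteins of antiviral defence. The 50 genes described here were taken from the deposited table by symbol, and each of the 50 was found among its 34745 genes. They comprise 4 signal transducers (the factors that carry or amplify the interferon signal), 37 targets of type I interferon and 9 interferon-inducible GTPases. Their RNA was measured by RNA sequencing of samples labelled as mouse liver, 48 h after PHx (partial hepatectomy), an operation that takes out liver lobes and makes the remnant grow back. The mice labelled Sox9HKO (3 libraries, called HKO) were compared with Sox9f/f mice (3 libraries, given the genotype WT in the labels and called WT). All were 12-week-old C57BL/6 animals, and both groups had PHx, so no liver without surgery is part of the comparison. Sox9f/f denotes mice whose Sox9 alleles are flanked by recombination sites, so the controls carry this allele too. The sources used here name neither the driver of the Sox9 deletion nor its extent. The tissue is labelled liver and the cell type hepatocyte, and the series is titled as primary hepatocytes. Whether the RNA came from whole liver or from isolated hepatocytes is thus not settled by the sources used here.

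Type I interferons bind a receptor made of Ifnar1 and Ifnar2. The receptor's kinases then phosphorylate STAT2, which acts with IRF9 in the complex ISGF3. ISGF3 binds the interferon-stimulated response element (ISRE). Interferon gamma acts through a separate receptor and through the gamma-activated site (GAS). Hepatocytes carry the type I receptor and express many of these genes at a basal level, without infection, and the immunity-related GTPases (IRG) and guanylate-binding proteins (GBP) attack the vacuoles in which intracellular parasites and bacteria live.

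Many of the members carry the letters of these elements just before their start. The sequences below show how they are laid out in genes whose RNA differed between HKO and WT and in relatives whose RNA was not called. They come from RefSeq promoter windows of 300 bases (250 before to 50 after the start, GRCm38.p6), are written 5′ to 3′ on the gene's strand, and lie within the 250 bases before the start. Capitals mark matches to the ISRE letters (GAAA, any 2 bases and GAAA again, or the same with TTTC on the other strand) or to the GAS letters TTCNNNGAA, which read the same on both strands. Matches may overlap, and a match is a string of letters, not a measured binding site. The first 4 are from IRG genes, all lower in HKO.
Igtp (chr11:58199499-58199543, plus strand): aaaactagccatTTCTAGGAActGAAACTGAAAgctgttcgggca
Irgm2 (chr11:58214890-58214934, plus strand): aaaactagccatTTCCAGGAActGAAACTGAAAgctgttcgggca
Tgtp1 (chr11:48992302-48992346, minus strand): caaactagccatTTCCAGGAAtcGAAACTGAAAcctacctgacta
Irgm1 (chr11:48871423-48871462, minus strand): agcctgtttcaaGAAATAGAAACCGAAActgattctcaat
The RefSeq starts of Irgm2 and Tgtp1 lie 15359 and 1926 bases from the starts in the deposited table. In Igtp, Irgm2 and Tgtp1 the GAS letters begin 11 bases before the ISRE letters. The Igtp and Irgm2 stretches are identical at 44 of 45 bases and differ by T16C (Igtp's base first, counted from the 5′ end of the stretch). Tgtp1 shares 33 of the 45 bases with Igtp and 34 with Irgm2. The next 4 are a transducer and 3 type I targets that were also lower in HKO.
Stat2 (chr10:128270264-128270297, plus strand): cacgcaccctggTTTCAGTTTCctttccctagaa
Isg15 (chr4:156200863-156200908, minus strand): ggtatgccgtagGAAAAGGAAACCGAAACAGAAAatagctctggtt
Ifit1 (chr19:34640773-34640825, plus strand): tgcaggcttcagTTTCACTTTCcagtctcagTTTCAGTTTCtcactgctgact
Rsad2 (chr12:26456551-26456584, minus strand): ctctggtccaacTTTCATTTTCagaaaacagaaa
The last 5 carry the same letters, and their genes were not called different between HKO and WT.
Ifit3 (chr19:34583361-34583428, plus strand): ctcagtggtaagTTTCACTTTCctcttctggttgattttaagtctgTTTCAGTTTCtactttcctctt
Oas1a (chr5:120907526-120907557, minus strand): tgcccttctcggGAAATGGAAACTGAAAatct
Gbp3 (chr3:142559987-142560026, plus strand): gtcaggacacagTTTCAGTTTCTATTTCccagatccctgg
Gbp7 (chr3:142530218-142530304, plus strand): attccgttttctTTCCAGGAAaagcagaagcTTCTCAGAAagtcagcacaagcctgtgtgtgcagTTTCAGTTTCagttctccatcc
Bst2 (chr8:71537575-71537620, minus strand): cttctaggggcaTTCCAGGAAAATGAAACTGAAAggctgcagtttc
Ifit1 and Ifit3 each show the pair TTTCACTTTC and TTTCAGTTTC. Isg15, Irgm1, Oas1a and Gbp3 show overlapping matches, and Bst2 shows the GAS letters running into the ISRE letters.

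The ISRE letters were more frequent in the members' promoters than in all windows, both in members lower in HKO and in members not called. Windows were found for 39 of the 50 members. Iigp1, Ifi27, Parp9, Parp14, Mx2, Usp18, Dhx58, Mx1, Rtp4, Oas2 and Zbp1 were not among them. ISRE letters stood in 19 of the 39 windows (48.7%), against 3.09% of the 9353 windows of all tested genes and 3.35% of all 18556 windows searched. GAS letters stood in 11 of the 39 (28.2%), against 7.02% and 7.95%. Among the members lower in HKO, 11 of 18 windows held ISRE letters (61.1%) and 4 of 18 GAS letters. In Ddx58, Eif2ak2 and Ifih1, all lower, the ISRE letters stood only after the start. Among the members not called, 8 of 20 held ISRE letters (40%) and 7 of 20 GAS letters. ISRE letters were in 4 of the 5 IRG windows, whose genes were all lower, and in 3 of the 3 GBP windows, whose genes were not called. The window of Lgals3bp, the member that was higher, held neither.

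**Figure D1:**
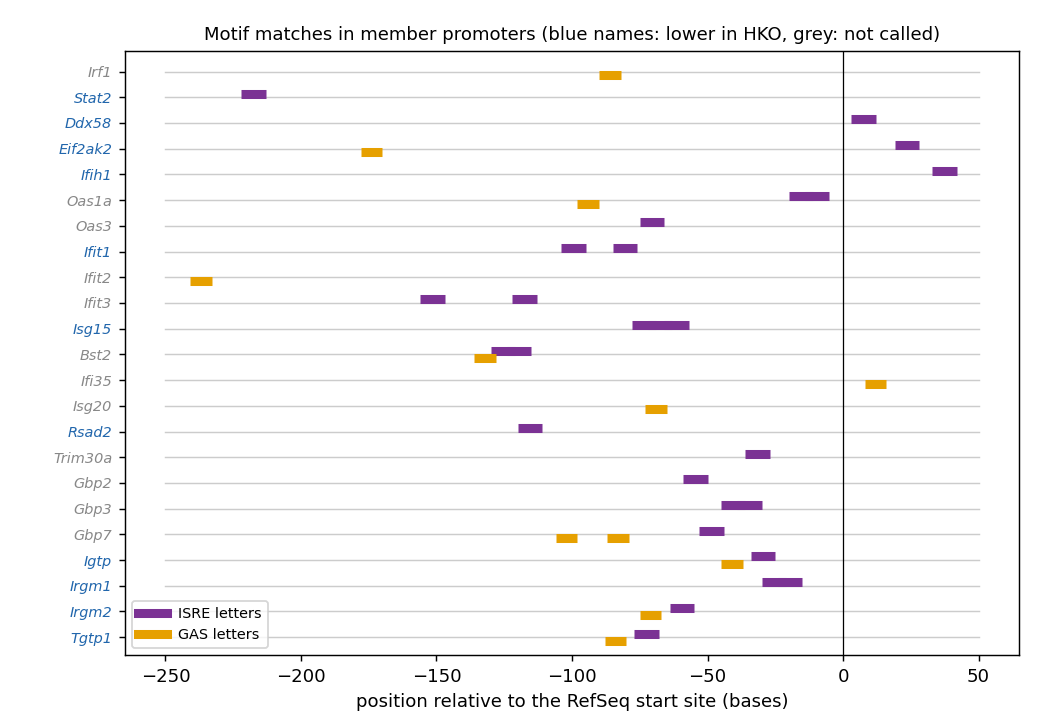
Positions of ISRE letters (purple) and GAS letters (orange) in the RefSeq windows of the 23 members that hold either, with the position relative to the RefSeq start site in bases on the x axis and 1 member per line. ISRE letters stand in 19 members and GAS letters in 11, in members lower in HKO (blue names) and in members not called (grey names).

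The libraries held 16659778 to 21168233 counts, with 15509 to 16284 genes detected in each. HKO 2 stood apart from the other HKO libraries on the second principal component (18.8% of the variance), with 25.9% of its counts on mitochondrial genes against 12.1% to 16.3% elsewhere. Levels below are CPM, which put the counts of all libraries on 1 scale by their totals and edgeR's TMM factors, and each fold change is HKO minus WT on the log2 scale from edgeR's quasi-likelihood test. The threshold for a call was an adjusted p below 0.05, over all 12556 genes tested. Sox9 itself, the targeted gene, was at 6.34, 4.30 and 4.78 CPM across HKO 1, 2 and 3, against 6.94, 13.7 and 11.3 CPM across WT 1, 2 and 3, a log2 fold change of -1.05 (adjusted p = 0.0284, SE 0.27). HKO 1 and WT 1 lay close together for Sox9, and the call was lost without HKO 2, HKO 3, WT 2 or WT 3 (adjusted p up to 0.0975). RNA remained in HKO, and whether the counted reads lie in the deleted stretch was not tested. Whether every library is from a different mouse is not stated, and the p-values then reflect only the spread among these libraries, which may be technical.

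Many interferon-stimulated genes were lower in HKO, among them transducers, sensors, effectors and GTPases. All 50 members passed the filter on low counts. Of these, 24 were lower in HKO and 1 was higher, while 25 were not called. Over all genes tested, 11.2% were called lower and 12.1% higher. These shares also stand beside the counts of each group of genes below. In a group of few genes, 1 call is too little to set it apart from all genes. The members' median log2 fold change was -0.60 (range -1.95 to 1.0), against 0.02 over all genes tested, and 38 of 50 were negative, against 48.4% of all genes. The 24 called lower stood at 25.9% to 77.2% of their WT mean, with a median log2 fold change of -0.87. HKO lay wholly below WT in 29 members and wholly above it in 2, where 21.6% and 22.6% of all tested genes did so. Relative to the WT mean, the median member stood at -0.61, -0.59 and -0.65 (log2) in HKO 1, 2 and 3 and at -0.06, 0.05 and -0.01 in WT 1, 2 and 3. Each HKO library thus lay below each WT library, HKO 2 included. Leaving out HKO 2 gave 24 members lower and 2 higher, where 12.2% and 12.5% of all tested genes were then called lower and higher.

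**Figure D2:**
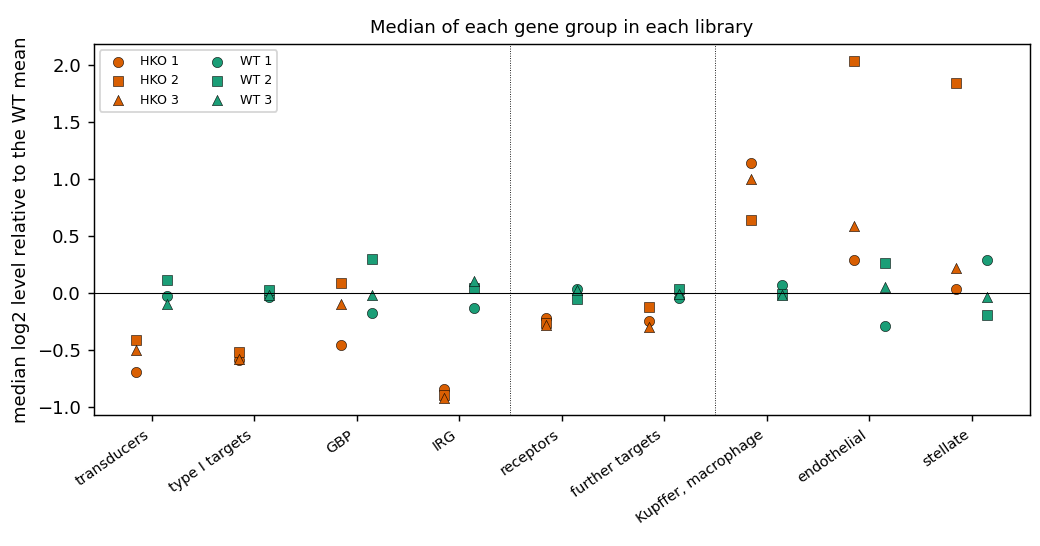
Median log2 level relative to the WT mean (y axis) of each gene group in each of the 3 HKO (orange) and 3 WT (green) libraries, for members (left), other pathway genes (middle) and cell type markers (right). The IRG medians of HKO sit at -0.84, -0.90 and -0.92, below the 3 WT libraries, the GBP medians of HKO overlap those of WT, and the endothelial and stellate medians are highest in HKO 2, at 2.04 and 1.84.

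In bulk RNA, fewer cells of a type and less RNA per cell cannot be told apart, so markers of the cell types a liver sample can hold are given here. Hepatocyte markers were abundant, with Alb, the albumin gene, between 49761 and 77671 CPM, and of the 9 tested 2 were higher (Cps1, Cyp2e1) and 1 lower (Serpina1a). They summed to 74831 to 79639 CPM in HKO and 81313 to 101704 in WT, mostly Alb, which was not called (-0.43, adjusted p = 0.219). Without Alb the sum was 22842.4 to 28286.5 CPM in HKO and 20094.5 to 24033.2 in WT, with overlap. Of 14 tested Kupffer cell and macrophage markers, 13 were higher in HKO and 1 (Mpeg1, log2 fold change -1.43) was lower. Their summed level was 365 to 546 CPM in HKO and 402 to 427 in WT, of which Mpeg1 alone made 59.9 to 89.4 and 191 to 209 CPM. Without Mpeg1 the sum was 306 to 473 CPM in HKO and 205 to 217 in WT. The median log2 fold change of the 14 tested markers was 0.92. Plasmacytoid dendritic cells are the classic source of type I interferon, but their more specific markers Siglech, Ccr9, Pacsin1 and Cox6a2 stood at 0 to 7 counts in each library. The list summed to 27.1 to 57.1 CPM in HKO and 45.6 to 49.04 in WT, most of it Ly6d, which was lower (-0.63), and without Ly6d to 1.78 to 22.3 and 1.10 to 2.22 CPM, with the HKO maximum set by Klk1 in HKO 2 (20.5 CPM). Lair1, the other marker tested, was not called (0.42). Neutrophil markers summed to 1.32 to 5.23 CPM in HKO and 0.611 to 0.899 in WT, with Csf3r, the 1 tested, higher. T and NK cell markers summed to 0.775 to 2.27 and 0.222 to 1.89 CPM, and classical dendritic cell markers to 4.56 to 10.53 and 3.71 to 4.64 CPM. B and plasma cell markers summed to 20.2 to 27.4 CPM in HKO and 1.11 to 2.36 in WT, with Ighm, Igkc and Jchain higher. Endothelial and stellate markers were highest in HKO 2, with medians of 2.04 and 1.84 (log2, relative to WT) against 0.04 to 0.59 in the other HKO libraries. Lyve1 of the first list and Reln, Dcn and Rgs5 of the second were called higher. The endothelial list summed to 178 to 543 CPM in HKO and 108 to 170 in WT, and the stellate list to 147 to 576 and 95.3 to 139.7 CPM. Of 7 biliary markers 3 were tested, and 2 of these, Sox9 and Spp1, were lower. The sum of the 7 was 34.7 to 57 CPM in HKO and 64.6 to 171 in WT, mostly Spp1. Krt7 and Krt19, which define bile duct cells, reached 2.44 and 3.20 CPM in HKO 2 and at most 0.449 CPM elsewhere. The part of these cell types in the members' differences was not tested.

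Per length, the members ranged widely in level. By the deposited FPKM, a count divided by gene length and library total, Bst2 and Iigp1 led in WT with 129 ± 12.3 and 106 ± 17.6 FPKM (SD, n = 3). Their WT ranges did not overlap. Ifi27 followed at 23.99 ± 1.72, then Stat2 at 16.5 ± 2.34 and Lgals3bp at 14.9 ± 3.18, whose WT ranges overlapped. Of the 50 members, 7 reached 10 FPKM in WT and 12 lay below 1, the lowest being Mx1 at 0.204 ± 0.0112, Oas2 at 0.135 ± 0.0673 and Oas3 at 0.0683 ± 0.0171. Of the OAS genes, Oasl1 (2.35 ± 0.219) and Oas1a (1.77 ± 0.236) stood above 1 FPKM, and Isg15 was at 9.77 ± 1.90 FPKM. In HKO, Lgals3bp stood at 27.5 ± 1.16 FPKM and Stat2 at 9.17 ± 0.549, and the ranges of these 2 no longer overlapped.

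**Figure D3:**
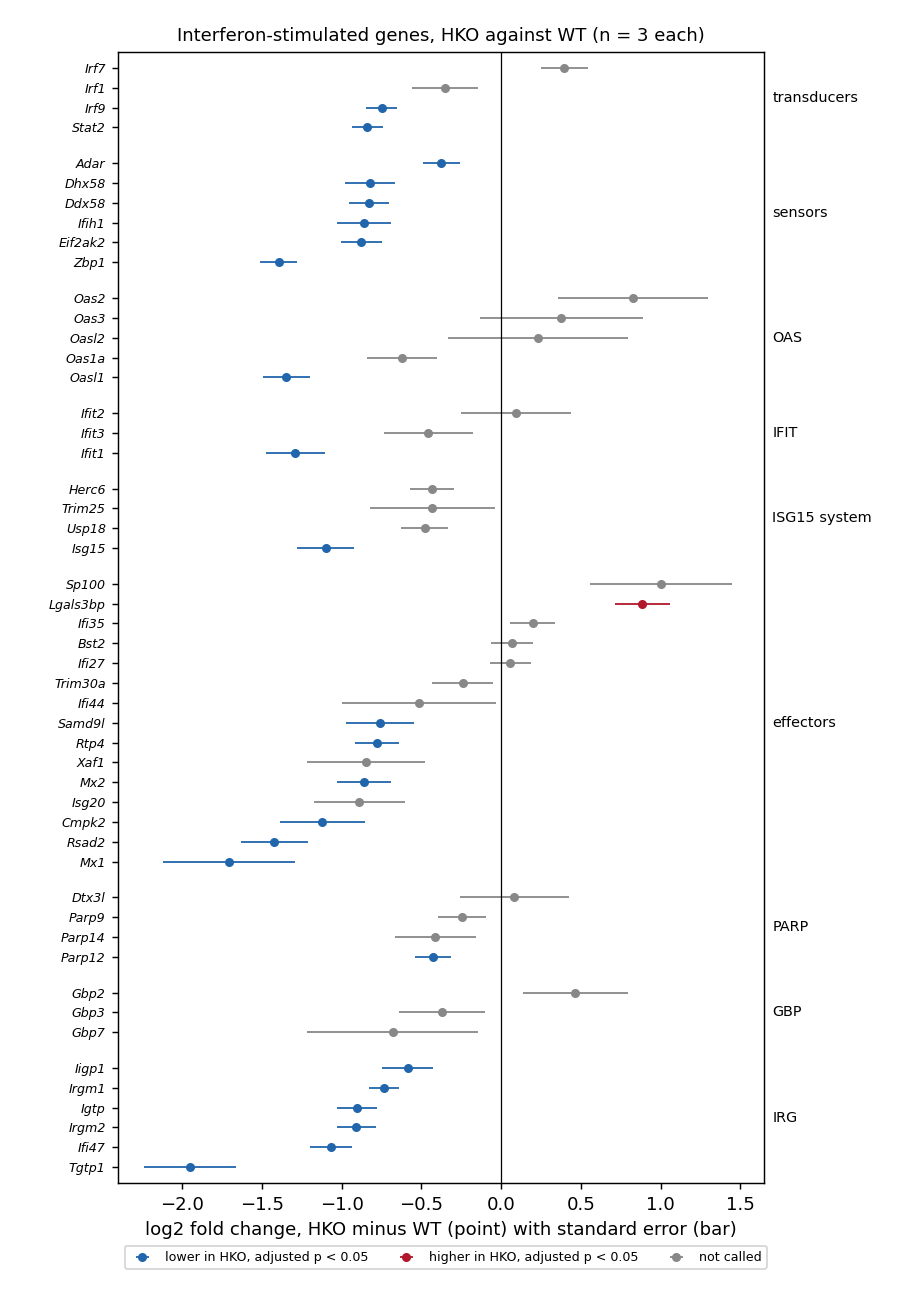
Log2 fold change (HKO minus WT) of the 50 members, grouped by role, with bars of 1 standard error and the calls at adjusted p below 0.05 set apart by colour. The 6 sensors and 6 IRG genes all lie below 0, the 3 GBP genes were not called, and Lgals3bp is the member called higher.

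Stat2 and Irf9, which act together in ISGF3, were lower in HKO, while the other 2 transducers were not called. Stat2 (ENSMUSG00000040033, chromosome 10, 128270576 to 128292849, plus strand) was at 39.6, 41.6 and 42.2 CPM across HKO 1, 2 and 3, against 81.3, 69.9 and 69.6 CPM across WT 1, 2 and 3. The HKO values lay close together and below every WT value, with a log2 fold change of -0.84 (adjusted p = 0.00136, SE 0.10). Irf9 (ENSMUSG00000002325, chromosome 14, 55603571 to 55610030, plus strand), the DNA-binding subunit, was at 21.4, 23.3 and 22.8 CPM across HKO 1, 2 and 3, against 36.2, 39.9 and 37.2 CPM across WT 1, 2 and 3. It again fell without overlap, by a log2 fold change of -0.75 (adjusted p = 0.00197, SE 0.10). The calls of Stat2 and Irf9 were kept in all 14 alternatives. Irf1, which is induced by interferon gamma and activates further targets, was at 11.9, 16.3 and 14.6 CPM in HKO, against 17.4, 23.2 and 13.8 CPM in WT, with overlap, and its log2 fold change was -0.35 (adjusted p = 0.251). Irf7, which drives transcription of the interferon alpha genes and is a target of ISGF3, had a log2 fold change of 0.40 (adjusted p = 0.0855), with 19.8, 15.4 and 20.5 CPM in HKO, against 13.8, 15.6 and 12.9 CPM in WT. Without HKO 2 it was called higher (0.51, adjusted p = 0.0272), opposite to Stat2 and Irf9. A stretch amounting to 2.28% of Irf9's exonic bases is shared with Rnf31.

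All 6 sensors of foreign or unusual nucleic acid were lower in HKO, with a median log2 fold change of -0.84. Zbp1 (ENSMUSG00000027514, chromosome 2, 173206612 to 173218923, minus strand), which recognises nucleic acid in the Z form and can trigger necroptosis, was at 7.09, 7.33 and 7.29 CPM across HKO 1, 2 and 3, against 17.7, 20.6 and 18.9 CPM across WT 1, 2 and 3. With a log2 fold change of -1.40 (adjusted p = 0.000359, SE 0.12), it stood at 38% of its WT mean, and the 3 HKO libraries were nearly equal. The RIG-I-like receptors detect viral RNA in the cytosol. Ifih1 (MDA5) was at 20.4, 29.9 and 32.3 CPM across HKO 1, 2 and 3, against 49.8, 53.1 and 47.1 CPM across WT 1, 2 and 3, a log2 fold change of -0.86 (adjusted p = 0.0105, SE 0.17). Ddx58 (RIG-I) was at 20.4, 24.02 and 25.8 CPM across HKO 1, 2 and 3, against 45, 38.1 and 41.7 CPM across WT 1, 2 and 3, a log2 fold change of -0.83 (adjusted p = 0.0035, SE 0.12). Dhx58 (LGP2), the regulator of the pair, was at 8.004, 6.05 and 7.75 CPM across HKO 1, 2 and 3, against 13.9, 13.3 and 11.4 CPM across WT 1, 2 and 3, a log2 fold change of -0.82 (adjusted p = 0.00953, SE 0.16). The 3 fell to a like extent, and in each the highest HKO value was under the lowest WT value. Eif2ak2 (PKR), the kinase that stops translation on sensing double-stranded RNA, was at 12.3, 13.96 and 16.5 CPM across HKO 1, 2 and 3, against 25.1, 26.2 and 27.2 CPM across WT 1, 2 and 3, a log2 fold change of -0.88 (adjusted p = 0.00354, SE 0.13). Adar, the enzyme that edits double-stranded RNA and so keeps it from being sensed, differed least, at 16.9, 19.02 and 16.6 CPM across HKO 1, 2 and 3, against 24.8, 21.7 and 21.5 CPM across WT 1, 2 and 3, a log2 fold change of -0.37 (adjusted p = 0.0494, SE 0.11). Its groups did not overlap, but its call was lost on leaving out HKO 1, HKO 3 or any WT library (adjusted p up to 0.123) and under 4 other settings, and 16.8% of its exonic bases overlap Chrnb2 on the opposite strand.

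Of 5 OAS genes, 1 was lower and the others were not called, where 11.2% of all genes were lower and 12.1% higher. These enzymes make short oligoadenylates that activate RNase L, and the OAS-like proteins are their relatives. Oasl1 (ENSMUSG00000041827, chromosome 5, 114923240 to 114937915, plus strand), which restrains translation of Irf7 mRNA, was lower, at 5.32, 4.65 and 5.51 CPM across HKO 1, 2 and 3, against 12, 12.7 and 14.8 CPM across WT 1, 2 and 3. Its log2 fold change was -1.35 (adjusted p = 0.00109, SE 0.15), with every HKO value below every WT value. Oasl2, 11006 bases away, was at 2.63, 6.16 and 1.14 CPM in HKO, against 3.94, 2.42 and 2.01 CPM in WT, with HKO 2 highest and a log2 fold change of 0.23 (adjusted p = 0.798). Oas1a was at 2.26, 2.27 and 1.96 CPM in HKO, against 3.61, 3.37 and 2.99 CPM in WT, without overlap, but its log2 fold change of -0.62 (adjusted p = 0.078) was not called. Oas2 and Oas3, at 0.291 to 2.79 CPM over the 6 libraries, had log2 fold changes of 0.83 (adjusted p = 0.236) and 0.38 (adjusted p = 0.63). The median of the 5 was 0.23, whereas their per-library medians relative to WT were -0.03, -0.53 and -0.73 in HKO, so the sign of the group depends on the summary.

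Of the IFIT genes, whose proteins bind foreign RNA ends, Ifit1 was lower and its neighbours were not called. Ifit1 (ENSMUSG00000034459, chromosome 19, 34640871 to 34650009, plus strand) was at 2.69, 3.26 and 2.96 CPM across HKO 1, 2 and 3, against 6.94, 8.26 and 6.59 CPM across WT 1, 2 and 3. HKO stood at 40.9% of WT without overlap, a log2 fold change of -1.29 (adjusted p = 0.003, SE 0.18). Ifit3, 52140 bases away, was at 2.74, 5.52 and 3.92 CPM in HKO, against 6.61, 5.39 and 4.70 CPM in WT, overlapping, with a log2 fold change of -0.46 (adjusted p = 0.266). Ifit2 was at 1.99, 3.43 and 1.96 CPM in HKO, against 1.61, 2.36 and 2.93 CPM in WT, also overlapping, with a log2 fold change of 0.09 (adjusted p = 0.867). Ifit3b, a near copy of Ifit3, had -0.25 (adjusted p = 0.686), and reads that match both copies may be split between them. The differences between neighbouring genes were not tested.

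The ISG15 system attaches the ubiquitin-like protein ISG15 to other proteins and removes it. Isg15 (ENSMUSG00000035692, chromosome 4, 156199424 to 156200818, minus strand) itself was lower, at 3.28, 3.43 and 3.55 CPM across HKO 1, 2 and 3, against 8.50, 6.46 and 7.08 CPM across WT 1, 2 and 3. The groups were well apart, with a log2 fold change of -1.10 (adjusted p = 0.00496, SE 0.18). Usp18, which removes ISG15 and blocks the type I receptor, was at 10.4, 9.42 and 9.89 CPM in HKO, against 16.4, 12.9 and 12.1 CPM in WT, and Herc6, the mouse ligase for ISG15, was at 13.3, 13.4 and 16.2 CPM in HKO, against 17.1, 19.4 and 21.5 CPM in WT. In both, HKO lay below WT, but the log2 fold changes of -0.48 (adjusted p = 0.052) and -0.43 (adjusted p = 0.0562) were not called. Herc6 was called lower without WT 1 (-0.53, adjusted p = 0.0488). Trim25, a ubiquitin ligase that activates RIG-I, was at 70.8, 32.7 and 39.7 CPM in HKO, against 32.4, 85.4 and 75.4 CPM in WT, with HKO 1 and WT 1 at odds with their groups, and its log2 fold change was -0.43 (adjusted p = 0.454).

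Among 15 effectors, a mixed set of antiviral and other interferon-induced proteins, 6 were lower and 1 higher, and the median log2 fold change was -0.76. Rsad2 (viperin), an enzyme that makes a chain-terminating nucleotide, was at 2.42, 3.14 and 2.05 CPM across HKO 1, 2 and 3, against 6.67, 7.02 and 6.65 CPM across WT 1, 2 and 3, a log2 fold change of -1.42 (adjusted p = 0.0034, SE 0.21). Cmpk2, a nucleotide kinase 12752 bases from Rsad2, was at 3.01, 3.90 and 2.10 CPM across HKO 1, 2 and 3, against 5.67, 7.86 and 5.98 CPM across WT 1, 2 and 3, a log2 fold change of -1.12 (adjusted p = 0.0211, SE 0.27). This linked pair fell together without overlap, although the Cmpk2 call was lost without HKO 1, HKO 3, WT 2 or WT 3 (adjusted p up to 0.0757). In their intact form the Mx genes encode dynamin-like GTPases that trap viral particles. Whether these mice make such proteins was not tested. Mx1 was near the limit of detection, with 7, 3 and 9 counts in HKO 1, 2 and 3 and 18, 19 and 19 counts in WT 1, 2 and 3, a log2 fold change of -1.70 (adjusted p = 0.0231, SE 0.41). Mx2, which GENCODE M21 annotates as a polymorphic pseudogene, was at 5.43, 4.94 and 4.37 CPM across HKO 1, 2 and 3, against 8.50, 10.1 and 8.12 CPM across WT 1, 2 and 3, a log2 fold change of -0.86 (adjusted p = 0.00997, SE 0.17). Both were lower in every HKO library, and the Mx1 call was lost on leaving out any library but HKO 2 (adjusted p up to 0.0914).

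Rtp4, an interferon-induced chaperone of receptors, and Samd9l, a growth-restraining antiviral factor, were the other 2 effectors called lower. Rtp4 was at 7.04, 6.40 and 5.92 CPM across HKO 1, 2 and 3, against 11.8, 10.7 and 10.7 CPM across WT 1, 2 and 3, a log2 fold change of -0.78 (adjusted p = 0.00694, SE 0.14). Samd9l was at 10.7, 20.5 and 15.1 CPM across HKO 1, 2 and 3, against 24.4, 28.03 and 25.9 CPM across WT 1, 2 and 3, a log2 fold change of -0.76 (adjusted p = 0.0391, SE 0.22). HKO 2 was the highest HKO library for Samd9l but still under WT, and the call was lost on leaving out any library but HKO 2 (adjusted p up to 0.109). Lgals3bp (ENSMUSG00000033880, chromosome 11, 118392751 to 118402092, minus strand), a secreted galectin-3-binding glycoprotein, was the exception, at 111, 132 and 115 CPM across HKO 1, 2 and 3, against 56.6, 82.97 and 54.4 CPM across WT 1, 2 and 3. All 3 HKO values exceeded all 3 WT values, with a log2 fold change of 0.88 (adjusted p = 0.01, SE 0.17) that was kept in all 14 alternatives. It lies 5.61 Mb from Sox9 on the same chromosome, and of the 11 members on chromosome 11 it is the closest to Sox9.

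The remaining 8 effectors were not called. Bst2 (tetherin), which holds budding virions on the cell surface, was at 123, 90.6 and 94.97 CPM in HKO, against 103, 98.5 and 93.1 CPM in WT, a log2 fold change of 0.07 (adjusted p = 0.746). Ifi27 and Ifi35 had log2 fold changes of 0.06 (adjusted p = 0.775) and 0.20 (adjusted p = 0.341). Bst2 and Ifi27 were 2 of the 3 members at the highest level per length in WT. Isg20, an exonuclease that degrades RNA, was at 1.18, 0.930 and 1.46 CPM in HKO, against 2.17, 2.30 and 2.20 CPM in WT, below WT without overlap, with a log2 fold change of -0.89 (adjusted p = 0.0574). Xaf1, a pro-apoptotic protein, was at 1.45, 4.36 and 2.37 CPM in HKO, against 4.39, 5.34 and 4.94 CPM in WT, with HKO 2 alone near WT, a log2 fold change of -0.85 (adjusted p = 0.132). Without HKO 2 it was called lower (-1.34, adjusted p = 0.00958). Sp100, a nuclear body protein, was at 3.33, 10.002 and 3.42 CPM in HKO, against 3.11, 2.81 and 2.38 CPM in WT, above WT without overlap but widely spread, a log2 fold change of 1.0 (adjusted p = 0.138). Ifi44 and Trim30a had log2 fold changes of -0.51 (adjusted p = 0.474) and -0.24 (adjusted p = 0.394). HKO 2 was the highest HKO library for 23 of the 50 members, among them Sp100, Oasl2, Xaf1, Ifi44, Gbp2 and Samd9l, and the lowest for 17. HKO 1 was highest for 11 and lowest for 21, and HKO 3 highest for 16 and lowest for 12. In WT, the library most often highest was WT 2, for 22 members. The same shares over all genes were not counted, so these counts do not set the members apart.

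**Figure D4:**
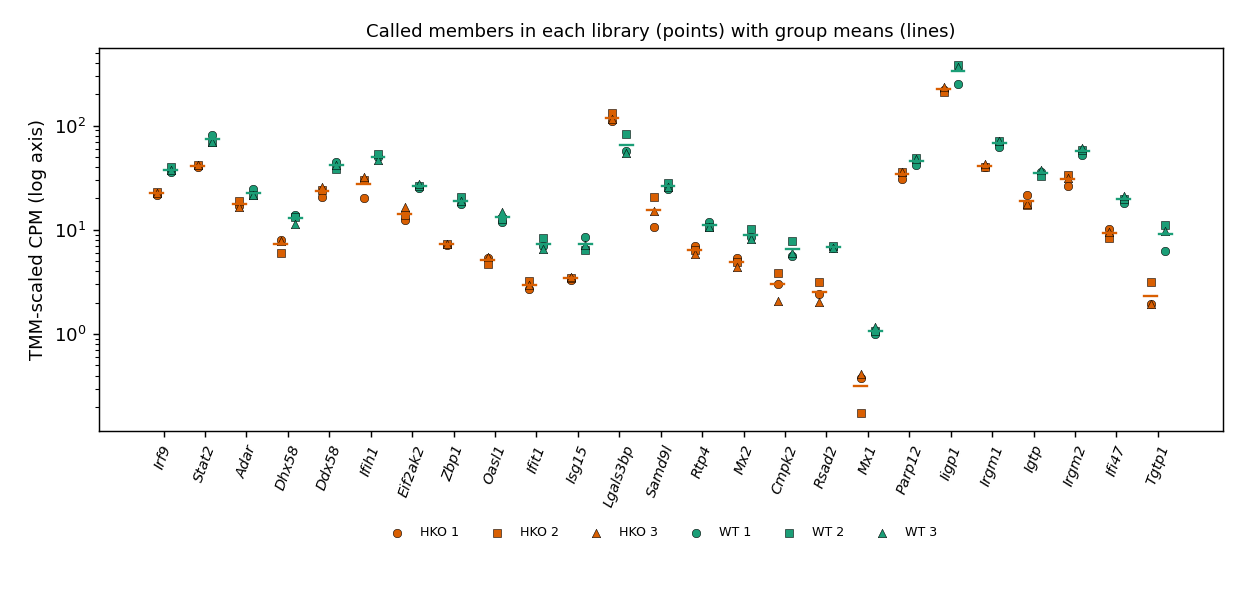
TMM-scaled CPM on a log axis for each of the 25 called members, with 1 point per library (HKO orange, WT green) and a line at each group mean. In all 25 the 3 HKO points and the 3 WT points do not overlap, and Lgals3bp is the member with HKO above WT.

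The PARP group comprises mono-ADP-ribosyltransferases and their ubiquitin ligase partner Dtx3l. Of the 4, 1 was called, where 11.2% of all genes were lower and 12.1% higher. Parp12, which restricts virus translation, was lower, at 30.6, 36.2 and 35.9 CPM across HKO 1, 2 and 3, against 41.4, 48.7 and 47.8 CPM across WT 1, 2 and 3. The groups did not overlap, with a log2 fold change of -0.43 (adjusted p = 0.0317, SE 0.11), and the call was lost without HKO 1, HKO 3, WT 2 or WT 3 (adjusted p up to 0.114). Parp14 was at 22.9, 28.9 and 29.1 CPM in HKO, against 21.8, 45.1 and 41.01 CPM in WT and Dtx3l at 39.1, 42.3 and 50.4 CPM in HKO, against 19.4, 57.2 and 48.02 CPM in WT. WT 1 was far below the other WT libraries in both, as it was in Trim25 and Gbp7, and their log2 fold changes were -0.41 (adjusted p = 0.271) and 0.08 (adjusted p = 0.883). Without WT 1, Parp14 was called lower (-0.69, adjusted p = 0.0181). Parp9, whose exons overlap those of Dtx3l on the opposite strand over 458 bases, had a log2 fold change of -0.25 (adjusted p = 0.263).

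Among the members, the 2 GTPase families differed in their calls: all 6 IRG members were lower and none of the 3 GBP members was called. The median of the IRG members was -0.91 and that of the GBP members -0.37, and the difference between the families was not tested. The contrast holds for the listed members only. Among genes outside the 50, Gbp6, Gbp10 and Gbp11 were lower, and other GBP genes and Tgtp2 were not called (below). Tgtp1 (ENSMUSG00000078922, chromosome 11, 48985327 to 48994172, minus strand), an IRG that loads onto parasite vacuoles, had the most negative fold change of the 50 members. It was at 1.93, 3.14 and 1.96 CPM across HKO 1, 2 and 3, against 6.33, 11.01 and 9.82 CPM across WT 1, 2 and 3, 25.9% of its WT level, and the log2 fold change was -1.95 (adjusted p = 0.00346, SE 0.29). Its near copy Tgtp2 was at 0.913, 2.44 and 0.866 CPM in HKO, against 1.39, 2.02 and 1.04 CPM in WT, with a log2 fold change of -0.09 (adjusted p = 0.908), and reads that match both may be split between them. Ifi47, 82415 bases from Tgtp1, was at 10.3, 8.26 and 9.57 CPM across HKO 1, 2 and 3, against 17.9, 19.9 and 21.2 CPM across WT 1, 2 and 3, a log2 fold change of -1.07 (adjusted p = 0.00161, SE 0.13). Each of these neighbours fell without overlap.

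Igtp, Irgm1 and Irgm2 form the regulatory branch of the IRG family, which keeps the effector IRGs off the cell's own membranes. Igtp (ENSMUSG00000078853, chromosome 11, 58199556 to 58207591, plus strand) was at 21.6, 17.2 and 17.6 CPM across HKO 1, 2 and 3, against 35.9, 32.5 and 37.2 CPM across WT 1, 2 and 3, a log2 fold change of -0.90 (adjusted p = 0.00265, SE 0.12). Irgm2 was at 26.3, 33.6 and 31.6 CPM across HKO 1, 2 and 3, against 51.9, 58.6 and 61.1 CPM across WT 1, 2 and 3, a log2 fold change of -0.91 (adjusted p = 0.00236, SE 0.12). These 2 share a locus, a near-identical promoter stretch (above) and 162 exonic bases (8.01% of Igtp's and 4.39% of Irgm2's), so their counts are not fully separate. Irgm1, elsewhere on chromosome 11, was at 40.3, 40.2 and 42.5 CPM across HKO 1, 2 and 3, against 62.6, 70.6 and 71.8 CPM across WT 1, 2 and 3, a log2 fold change of -0.74 (adjusted p = 0.00188, SE 0.09). All 3 regulators fell, with every HKO library below every WT library. Iigp1, the effector at the highest level per length of the family, was at 220, 211 and 235 CPM across HKO 1, 2 and 3, against 253, 379 and 367 CPM across WT 1, 2 and 3, a log2 fold change of -0.59 (adjusted p = 0.0331, SE 0.16). Its groups did not overlap, but WT 1 stood nearer to HKO than to WT 2 and WT 3, and the call was lost on leaving out any library but WT 1 (adjusted p up to 0.126). The 5 other IRG calls were kept in all 14 alternatives.

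The 3 GBP members lie side by side on chromosome 3 and showed overlap between the groups. Gbp2 was at 3.22, 5.82 and 2.60 CPM in HKO, against 2.44, 3.20 and 2.75 CPM in WT, a log2 fold change of 0.46 (adjusted p = 0.338), with HKO 2 highest. Gbp3 was at 3.76, 5.52 and 2.96 CPM in HKO, against 4.72, 6.40 and 4.64 CPM in WT, a log2 fold change of -0.37 (adjusted p = 0.355). Gbp7 was at 6.23, 4.36 and 9.93 CPM in HKO, against 3.28, 16.2 and 13.7 CPM in WT, with WT 1 far below the other WT libraries, and its log2 fold change was -0.68 (adjusted p = 0.389). Their standard errors were 0.27 to 0.54, against 0.09 to 0.29 in the IRG genes. Other GBP genes, on chromosome 5 and not among the 50, include some that were lower (below).

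**Figure D5:**
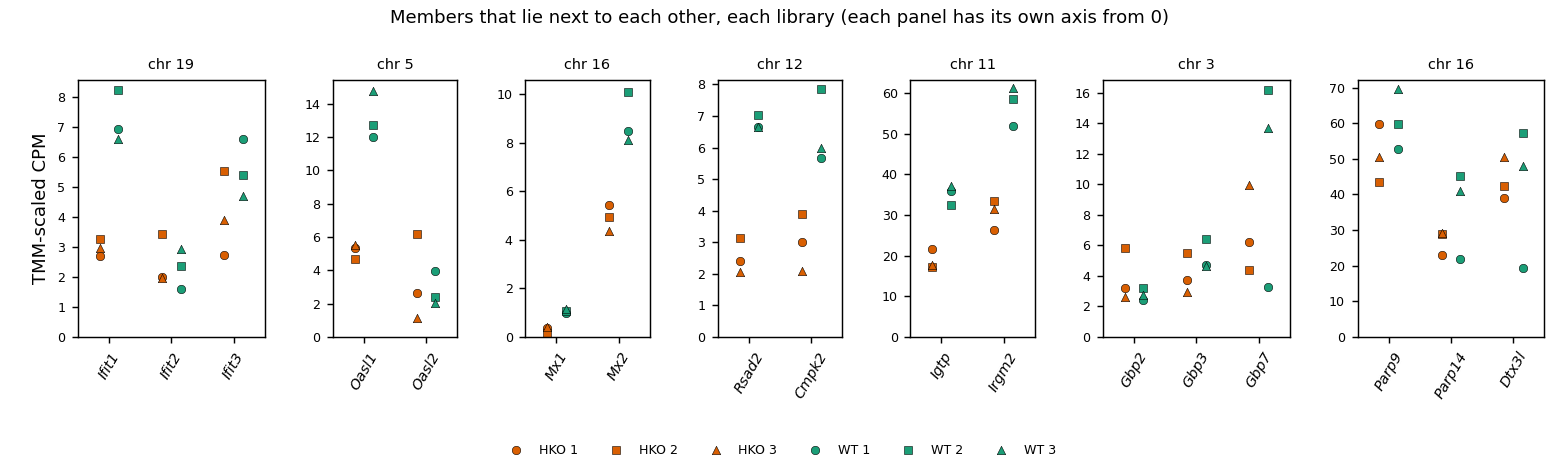
TMM-scaled CPM in each library (HKO orange, WT green) for members that lie next to each other, 1 panel per locus with its own axis from 0. Both genes are lower in HKO for Mx1 and Mx2, Rsad2 and Cmpk2, and Igtp and Irgm2, whereas Ifit1 and Oasl1 are lower beside neighbours whose groups overlap.

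Calls of neighbouring members were set side by side. Of 15 pairs within 100 kb of each other, 12 had the same call, where 24 of all 50 members were lower and 25 not called. In 4 of the 12 both were lower, in 8 neither was called, and the 3 discordant pairs involve Ifit1 or Oasl1. Uncalled pairs could differ in sign, as in Gbp7 (-0.68) and Gbp2 (0.46). Some pairs share a gene and so are not independent. Whether neighbours agree more often than other members was not tested.

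The rest of the interferon pathway was examined with 126 further entries, of which 120 were in the table and 90 were tested. The entries count Gbp6 as 2, because the table holds 2 records of it at overlapping positions. Of the 90, 21 were lower, both Gbp6 records among them, and 5 higher, against 11.2% and 12.1% of all genes. The median log2 fold change was -0.07. The lower calls numbered 13 without HKO 1, 9 without HKO 3, 12 without WT 1, 9 without WT 2 and 8 without WT 3. Of all genes, 7.71%, 7.1%, 8.24%, 6.98% and 5.32% were then called lower. The higher calls numbered 5, 3, 3, 3 and 2 in the same order, where 8.58%, 7.59%, 8.49%, 7.44% and 5.63% of all genes were called higher. Ligand RNA was at or near 0. Of 21 interferon genes, 19 had 0 counts in every library, and the other 2 had 1 count each, Ifnz in WT 1 and Ifng in HKO 2. A count of 0 allows up to 0.137 to 0.183 CPM in a library, for counting error only.

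None of the receptor genes was called. Ifnar1 was at 27.6 ± 5.39 CPM (SD, n = 3) in HKO, against 32.01 ± 2.30 CPM in WT with a log2 fold change of -0.21 (adjusted p = 0.338), and Ifnar2 had -0.14 (adjusted p = 0.346). Ifngr1 and Ifngr2, which form the interferon gamma receptor, had -0.31 (adjusted p = 0.0767) and -0.34 (adjusted p = 0.0584), with HKO wholly below WT in both. Il10rb, a subunit of the interferon lambda receptor, had 0.22 (adjusted p = 0.521), and Ifnlr1 was too low to test. Of the receptor kinases, Jak1 had a log2 fold change of 0.03 (adjusted p = 0.878), Tyk2 of -0.32 (adjusted p = 0.065) and Jak2 of -0.39 (adjusted p = 0.13). Irf3, the factor that starts interferon transcription, had -0.03 (adjusted p = 0.83), Irf2 had 0.09 (adjusted p = 0.687), Irf5 had -0.33 (adjusted p = 0.195) and Irf8 had 0.31 (adjusted p = 0.463).

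Among 7 tested brakes, 1 was lower and 0 were higher, where 11.2% and 12.1% of all genes were so called. The lower one was Socs3, the feedback inhibitor best known from interleukin-6 signalling. It was at 34.9, 39.8 and 31.5 CPM across HKO 1, 2 and 3, against 42, 75.2 and 63.4 CPM across WT 1, 2 and 3. Its log2 fold change was -0.77 (adjusted p = 0.0324, SE 0.21), and the call was lost without HKO 1, HKO 3, WT 2 or WT 3 (adjusted p up to 0.106). The classic brake of interferon signalling, Socs1, was too low to test. The phosphatases Ptpn1, Ptpn2, Ptpn6 and Ptpn11 had log2 fold changes of 0.13, -0.32, 0.21 and 0.04, and none was called, nor were Pias1 and Trex1.

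Of 12 tested genes that induce interferon, 2 were lower and 2 higher, against 11.2% and 12.1% of all genes. These counts are too small to set the group apart from all genes. Mavs, the mitochondrial adaptor of RIG-I and MDA5, was higher, at 87.1, 78.4 and 87.5 CPM across HKO 1, 2 and 3, against 52.1, 54.6 and 51.9 CPM across WT 1, 2 and 3. Its log2 fold change was 0.67 (adjusted p = 0.0022, SE 0.09), without overlap and kept in all 14 alternatives, opposite in sign to Ddx58 and Ifih1, which signal through it. Ticam1, the adaptor of Tlr3, was also higher (0.50, adjusted p = 0.0148), while Tlr3 itself was lower (-0.66, adjusted p = 0.0239), as was the kinase gene Ikbke (-0.46, adjusted p = 0.0182). The Ticam1 call was lost without HKO 3, WT 1 or WT 3 (adjusted p up to 0.0692), that of Tlr3 without HKO 1 or any WT library (0.0805) and that of Ikbke without HKO 3, WT 2 or WT 3 (0.0701).

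Among 58 tested records of further targets, which count Gbp6 as 2, 17 were lower and 3 higher, against 11.2% and 12.1% of all genes. Their median log2 fold change was -0.10. The most negative fold changes were those of 3 GBP genes on chromosome 5, Gbp6, Gbp10 and Gbp11. Their neighbours on that chromosome, Gbp4 (0.14, adjusted p = 0.883), Gbp8 (-0.01, adjusted p = 0.993) and Gbp9 (0.15, adjusted p = 0.807), were not called. Gbp11 was at 1.07, 1.22 and 1.05 CPM across HKO 1, 2 and 3, against 17.9, 6.01 and 8.73 CPM across WT 1, 2 and 3, a log2 fold change of -3.29 (adjusted p = 0.00206, SE 0.43), with the WT libraries spread widely and all above HKO. Gbp10 was at 0.430, 1.10 and 0.638 CPM across HKO 1, 2 and 3, against 4.17, 3.76 and 4.33 CPM across WT 1, 2 and 3, a log2 fold change of -2.50 (adjusted p = 0.00289, SE 0.35). Gbp6 is listed in 2 records, with log2 fold changes of -2.46 (adjusted p = 0.0035) and -2.35 (adjusted p = 0.0032). The Gbp6 and Gbp10 loci overlap and their sequences are alike, so the split of reads among them is uncertain, and all 4 calls were kept in all 14 alternatives. Oas1b is a member of the OAS family whose intact form is known for resistance to flaviviruses. Whether these mice make that form was not tested. Its log2 fold change was -1.80 (adjusted p = 0.0383) at no more than 1.71 CPM, and its call was lost on leaving out any library but HKO 1 (adjusted p up to 0.151). The 3 higher targets were Ifitm1 (1.34, adjusted p = 0.0252), which blocks viral entry, Slfn5 (1.29, adjusted p = 0.0122) and Znfx1 (0.45, adjusted p = 0.0168), an RNA helicase. Their calls were lost without WT 3 (adjusted p = 0.0601, 0.0582 and 0.0662). That of Ifitm1 was also lost without WT 1 or WT 2, and that of Znfx1 without HKO 3 or WT 2.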

How the data were processed

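RNA of 6 libraries labelled liver (3 HKO, 3 WT) was sequenced. For each gene and library the authors' deposited table gives a read count, a whole number that is not normalized, and an FPKM, per the file headers. Among the 9308 genes that reach 50 counts in all libraries, each FPKM equals count over column total and 1 gene length, with implied lengths that agree between libraries within 0.1%. The submitters' processing notes name HISAT2 2.0.4, StringTie 1.3.0 and the builds mm10 and GRCm38.p4, with no role or setting. No strand-marking step is described, and whether strand was used in counting was not tested, so values of genes that overlap on opposite strands are uncertain. The sources used here do not state how reads that match several genes were treated.

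Counts were tested in R 4.3.3 with edgeR 4.0.16 (filterByExpr, TMM, quasi-likelihood F-test, no block, Benjamini-Hochberg adjustment over all 12556 genes tested). Each SE was computed as the size of the log2 fold change over the square root of F, and the code was tested on simulated data. There, 8% of 50 genes changed 1.5-fold and 56% of 50 changed 2-fold were called. For 4-fold and 8-fold changes it was 96% and 100%, and 13 unchanged genes were called. A gene that was not called may thus still differ. Per-library medians use log2 CPM with a prior count of 2, relative to the WT mean. Coordinates are those of the deposited table on GRCm38, and exon overlaps come from GENCODE M21, which holds all 50 members. Stat2, Rsad2, Cmpk2, Bst2, Rtp4, Irgm2 and Iigp1 have other coordinates in GENCODE M21 than in the deposited table. On the same strand, Rtp4 shares 13.89% of its exonic bases with Gm45338 and Herc6 13.66% with Gm45193. Gbp7 shares 11.35% with Gm43802 and Tgtp1 6.958% with Gm12185. Promoter windows are RefSeq's, the one with the start nearest to the table's. Alternatives used limma 3.58.1 (voom), DESeq2 1.42.0, other scalings and filters, a replicate block and leaving out each library.

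The members and gene lists were chosen with earlier results of these data known. All 50 members could be named. Of the other pathway genes, the ligands, receptors, kinases, factors and brakes could be named, and of induction genes and further targets the called ones (at most 5 per direction by size) and near copies of members. Of cell type markers, called genes and summed levels were given. Uncalled markers and Gbp4, Gbp8 and Gbp9 were named after their values were seen. The values of 1 further pathway gene and of 1 biliary marker are not reported here, and both are included in the counts and sums of their lists.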

Additional observations from a re-analysis of the deposited data

How the results depend on the processing

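Of the 25 member calls, 19 were kept in all 14 alternatives and 6 (Adar, Mx1, Cmpk2, Samd9l, Parp12 and Iigp1) were lost on leaving out 1 or more libraries. Leaving out 1 library gave 18 to 24 members lower and 1 to 2 higher (2 without HKO 2, where Irf7 joined), 2 transducers lower in each case and 0 to 1 higher, 11 to 17 type I targets lower, and 5 to 6 GTPases lower. Over all genes the same step gave 682 to 1546 lower and 722 to 1589 higher calls, and over the other pathway genes 8 to 19 and 2 to 5. The median log2 fold change was -0.75 to -0.57 for the members, -0.64 to -0.42 for the transducers, -0.66 to -0.48 for the type I targets and -0.90 to -0.70 for the GTPases. With limma-voom the type I median was -0.51. The other 8 settings gave 23 to 24 members lower. A model with the replicate number as a block gave 23 members lower with a median of -0.59, ending the Adar call. Same-numbered HKO and WT libraries deviated together with r of -0.0019, 0.0025 and 0.0717 across genes, and differently numbered ones with r from -0.0764 to 0.0556. These values cannot exclude pairing. The labels give a number but state no pairing, so the libraries were not treated as pairs. On leaving out 1 library, 5 uncalled members changed sign: Oasl2 (-0.58 to 0.64), Ifit2 (-0.21 to 0.30), Bst2 (-0.10 to 0.15), Ifi27 (-0.090 to 0.17) and Dtx3l (-0.27 to 0.38), and Oasl2 was at -0.12 with limma-voom. The cause was not tested. Standard errors of up to 0.57 limit what could be called among the members of low count.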
